A study of Mus musculus with 6 samples.

Results

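The vacuolar H+-ATPase (V-ATPase) is a proton pump that uses ATP to acidify endosomes, lysosomes and secretory vesicles. Its V1 domain hydrolyses ATP in the cytosol and its V0 domain carries protons across the membrane. Within V0, a ring of proteolipid subunits (c and c″) turns against subunit a, which holds the proton channels, while subunit d joins the ring to the central stalk and subunit e is a small membrane protein. ATP6AP1 and ATP6AP2 are accessory proteins of V0 whose large domains face the lumen, and ATP6AP2 is also known as the (pro)renin receptor. The genes followed here were chosen by name: *Atp6ap2*, *Atp6ap1*, and the V0 subunit genes *Atp6v0a1*, *Atp6v0a2*, *Tcirg1*, *Atp6v0b*, *Atp6v0c*, *Atp6v0d1*, *Atp6v0e* and *Atp6v0e2*. All 10 were among the 24972 gene symbols of the table, and all 10 passed the filter on low values, which left 14456 genes to test.

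RNA-Seq was carried out on isolated lung endothelial cells (iLECs) of mice at postnatal day 7, with 3 control and 3 *Atp6ap2* iECKO samples. The strain label is C57BL/6, whereas the methods describe the lines as kept on mixed CD1 and C57BL/6 stock. All 6 samples carried a floxed *Atp6ap2* allele, labelled *Atp6ap2* fl/Y, and the iECKO samples in addition had *Cdh5-Cre ERT2*, which is a Cre recombinase that tamoxifen activates and that the promoter of the endothelial cadherin gene *Cdh5* drives. Both genotypes were described as given 100 μg of tamoxifen on postnatal days 1 to 3, and the cells were taken from digested lung with magnetic beads that carried an antibody to CD31. The controls therefore had no Cre, and deletion was limited to cells in which the *Cdh5* promoter is active. Which exon is floxed is not given in the sources used here, so a transcript that remains after recombination would still be counted in the value of the whole gene.

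Values were estimated counts that the authors had normalized to the library, here called normalized counts, with totals of 26243878 to 28725799 per library. The number of reads behind them is unknown. Genes above 0 numbered 16502 to 16567 in control libraries and 16728 to 16793 in iECKO libraries, without overlap. Whether the number of reads differed between genotypes was not tested. Endothelial markers such as *Cdh5* were high in every library, and the summed level of 10 endothelial markers was 282948 to 360609.8 in controls and 299387 to 338047 in iECKO samples. Of these 10 markers, 1 was lower in iECKO samples past the threshold given below (*Tek*, an angiopoietin receptor gene, named after its values were seen, log2 fold change -0.53, SE 0.11, limma adjusted *P* = 0.0292) and 0 were higher. Markers of other cells were present as well. Epithelial markers (10) summed to 25323 to 68759 in controls and 31548 to 38655 in iECKO samples, with 1 higher in iECKO samples past the threshold. Erythroid markers (9) summed to 11323 to 48005 and 10679 to 22312, with 0 past it. Both sums overlapped between genotypes. The sum of 10 fibroblast markers was 42721 to 73342 in controls and 17825 to 22363 in iECKO samples, with 8 of the 9 tested markers lower in iECKO samples past the threshold, and the sum of 10 mural cell markers was 13589 to 20445 and 5626 to 7146, with 7 of 10 lower. In these bulk samples, fewer cells of a type and less RNA per cell cannot be told apart. The label fl/Y also did not match every library. *Xist*, the RNA of the inactive X chromosome, was at 37704 to 47487 in control samples 1 and 2 and iECKO samples 1 and 3, and at 31.7 and 19.3 in control sample 3 and iECKO sample 2, where 4 Y-linked genes summed to 7177 and 7402. Those 4 genes summed to 239 in control sample 1 and 19.0 in iECKO sample 3, both with *Xist*, and were listed at 0 in control sample 2 and iECKO sample 1. The paper states that neonates of both sexes were used and that female mice were fl/fl, both iECKO and control. As *Atp6ap2* and *Atp6ap1* are X-linked, the levels of the 10 genes are also given by the presence of *Xist*, as 2 against 2 libraries with it and 1 against 1 without it, with no test. The labels do not say whether samples were pooled or came from different litters, so *P* values measure the spread between these samples.

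The data show a strong fall of *Atp6ap2* transcripts, a smaller fall of *Atp6v0a1*, which encodes the a1 isoform of subunit a, and no other gene of the 10 past the threshold. limma was fitted to log2(normalized count + 1) of the 14456 genes, whose *P* values together were adjusted after Benjamini and Hochberg and read at a threshold of 0.05. Of the 10 genes, 2 were lower in iECKO samples, of which 1 was the targeted gene, and 0 were higher, whereas 8.25% of all genes tested differed, 4.97% being lower and 3.28% higher. The libraries of the 2 genotypes did not overlap for 5 of the 10 genes (3 higher and 2 lower in iECKO samples), beside 29.8% of all genes tested. Median log2 fold changes were 0.009 for the 10 genes, 0.043 without *Atp6ap2* and 0.005 for all genes tested. The summed normalized count of the 9 genes other than *Atp6ap2* was 17168 ± 1157 in controls and 16936 ± 1061 in iECKO samples (SD, n = 3 each, overlapping, exact permutation test, two-sided *P* = 1).

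**Figure D1:**
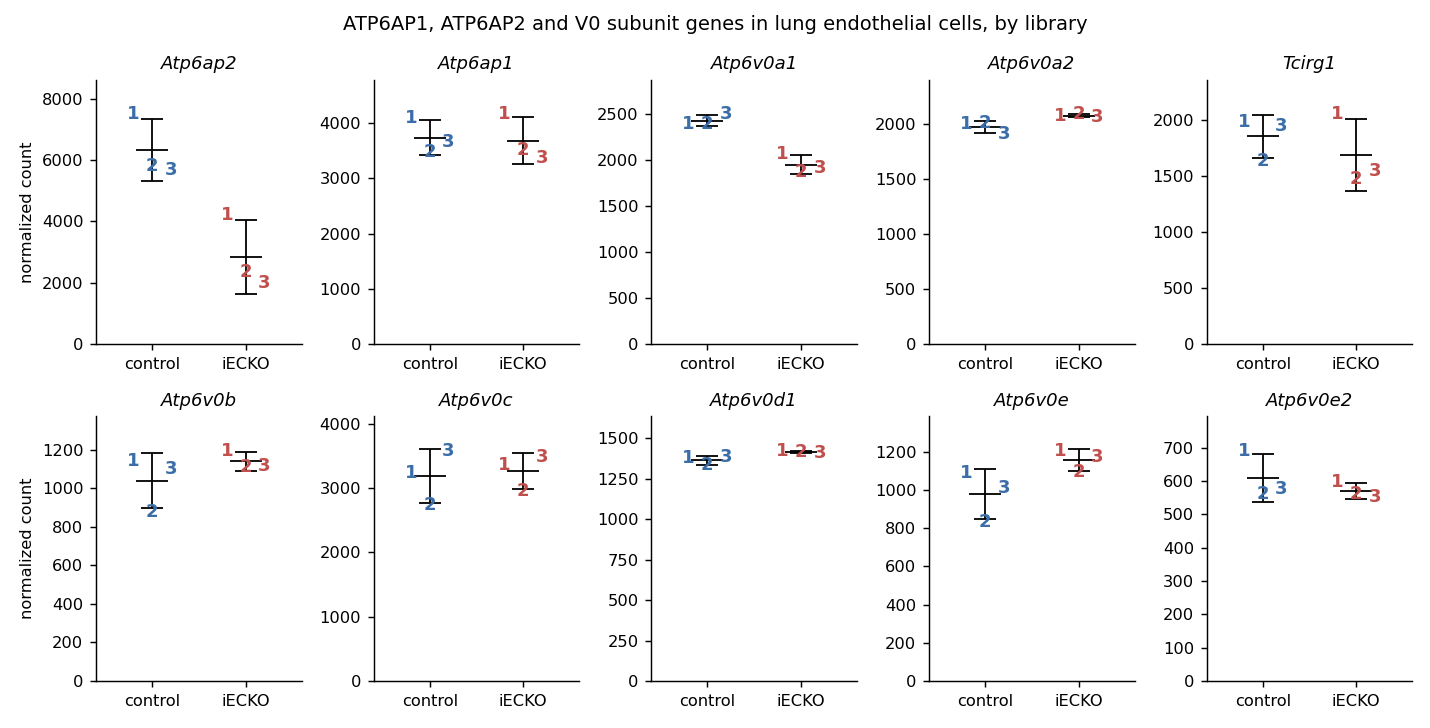
Normalized counts (linear axes from 0) of the 10 genes in 3 control and 3 iECKO libraries. Each digit is the replicate number of a library, and the black bars give the mean ± SD. *Atp6ap2* and *Atp6v0a1* are lower in all 3 iECKO libraries than in any control library, whereas *Atp6v0a2*, *Atp6v0d1* and *Atp6v0e* are higher in all 3.

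*Atp6ap2* (chromosome X, 12587801 to 12617049, plus strand, GRCm38) was at 7490.2, 5815 and 5681 normalized counts in control samples 1, 2 and 3 and at 4219.8, 2336 and 1982 in iECKO samples 1, 2 and 3. All iECKO libraries were below all controls, and iECKO sample 1 retained the most. The mean fell from 6329 ± 1008 to 2846 ± 1203 (SD, n = 3), to 45.0% of the control level, with a log2 fold change of -1.22 (SE 0.26, 95% interval -1.82 to -0.62, limma adjusted *P* = 0.0306). The adjusted *P* missed the threshold in 5 of 6 limma fits that left out a library (log2 fold changes of -1.29 to -0.999), and passed without iECKO sample 1. In these 6 fits 206 to 983 of all genes tested passed, against 1193 with all libraries. The coefficient of variation was 15.9% in controls and 42.3% in iECKO samples. Among libraries with *Xist* the iECKO level was 46.6% of control (2 against 2), and in those without it 41.1% (1 against 1). *Esr1* was also read because Cre ERT2 contains part of the human estrogen receptor, which may share reads with the mouse gene. It was at 28.0, 17.2 and 6.21 normalized counts in controls and 142, 309 and 270.3 in iECKO samples 1, 2 and 3. Among iECKO samples *Esr1* was lowest in sample 1, in which *Atp6ap2* was highest. It was highest in sample 2, however, whereas *Atp6ap2* was lowest in sample 3. Whether these values come from Cre ERT2 or follow the extent of deletion was not tested. The fibroblast and mural markers were lower in the same 3 libraries as *Atp6ap2*, and their part in its level was not tested.

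*Atp6ap1* (chromosome X, 74297097 to 74304721, plus strand), whose product sits beside ATP6AP2 in V0 and is needed for assembly of the pump, was at 4089, 3467 and 3649.8 normalized counts in controls and 4157, 3513 and 3365 in iECKO samples. The groups overlapped throughout. The log2 fold change was -0.02 (SE 0.11, limma adjusted *P* = 0.914), and its 95% interval of -0.27 to 0.22 leaves out a change of the size seen in *Atp6ap2*. Its level in iECKO samples was 99.5% of control among libraries with *Xist* and 96.3% in those without. The ratio of *Atp6ap2* to *Atp6ap1* per kilobase of exon was 2.12, 1.94 and 1.80 in controls and 1.17, 0.769 and 0.681 in iECKO samples, so that the accessory genes changed order in iECKO samples 2 and 3. On the log2 scale this ratio differed by -1.20 without overlap (two-sided *P* = 0.1 by exact permutation, which 3 against 3 cannot go below, and 0.2 when adjusted over the 6 ratios tested).

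Subunit a has several isoforms that direct the pump to different membranes. The a1 gene, *Atp6v0a1* (chromosome 11, 101009452 to 101063719, plus strand), was at 2396, 2394 and 2497 normalized counts in controls and 2061, 1865 and 1918 in iECKO samples. The controls lay close together and above every iECKO library. It fell to 80.2% of the control mean, with a log2 fold change of -0.32 (SE 0.08, 95% interval -0.50 to -0.14, limma adjusted *P* = 0.0433). This call was near the threshold. It held in 4 of 11 alternative settings and in 0 of 6 fits that left out a library, although the log2 fold change stayed between -0.36 and -0.27 in all of them. Over all genes, 1 to 1561 passed in those settings and 206 to 983 with a library left out, against 1193 in the main fit. The level was 83.1% of control among libraries with *Xist* and 74.7% in those without. The fibroblast and mural marker sums were lower in the same libraries, and their part in this result was not tested.

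The a2 gene, *Atp6v0a2* (chromosome 5, 124628576 to 124724455, plus strand), whose product is known from the Golgi and endosomes, was at 1999, 2008 and 1911 normalized counts in controls and 2069, 2086 and 2058 in iECKO samples. The iECKO libraries were all higher but by little. The log2 fold change was 0.07 (SE 0.07, 95% interval -0.09 to 0.23, limma adjusted *P* = 0.606). An antisense gene, *4930404A12Rik*, shares 9.86% of the exon bases of *Atp6v0a2*, and the library kit did not keep the strand. The a3 gene, *Tcirg1* (chromosome 19, 3896050 to 3907133, minus strand), known from lysosomes and the osteoclast membrane, was at 1988, 1635 and 1952 in controls and 2055, 1473 and 1544 in iECKO samples. These groups overlapped, with a log2 fold change of -0.15 (SE 0.14, 95% interval -0.48 to 0.18, limma adjusted *P* = 0.588). The sum of 10 leukocyte markers was 10146, 5920 and 9536 in controls and 11105, 4958 and 12723 in iECKO samples, and *Tcirg1* was lowest in each genotype in the library where that sum was lowest, sample 2 of both. Whether the leukocyte share affects *Tcirg1* was not tested. The kidney isoform gene *Atp6v0a4* was barely detected, at 5.98 to 22.8 normalized counts over the 6 libraries.

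The balance of the a1 and a2 genes did not overlap between genotypes. Their log2 ratio was 0.26, 0.25 and 0.39 in control samples 1, 2 and 3 and -0.01, -0.16 and -0.10 in iECKO samples 1, 2 and 3. A ratio within a library depends neither on its scaling nor, for the difference between genotypes, on gene length. The ratio differed by -0.39 on the log2 scale, a change of -23.7%, without overlap (exact permutation *P* = 0.1, adjusted *P* = 0.2). Every iECKO library was below all controls for a1 and above them for a2, so the ratio could not overlap. This test therefore adds nothing to the values of the single genes. The ratio of a1 to a3 differed by -0.17 and that of a2 to a3 by 0.22, both with overlap (exact permutation *P* = 0.4 and 0.2). The a1 to a2 difference was -0.31 among libraries with *Xist* and -0.55 in those without. As shares of the summed level of all a isoforms per kilobase of exon, a1 was 34.6% ± 1.23 in controls and 30.5% ± 1.08 in iECKO samples, a2 was 27.4% ± 1.64 and 31.7% ± 2.72, and a3 was 37.6% ± 2.50 and 37.5% ± 3.63 (SD, n = 3). The a4 isoform made up 0.345% and 0.239%. The largest of these shares depended on the length used: with the longest coding sequence in place of all exons, a1 was the largest in controls at 38.9%, with a2 at 31.0% and a3 at 29.9%.

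**Figure D2:**
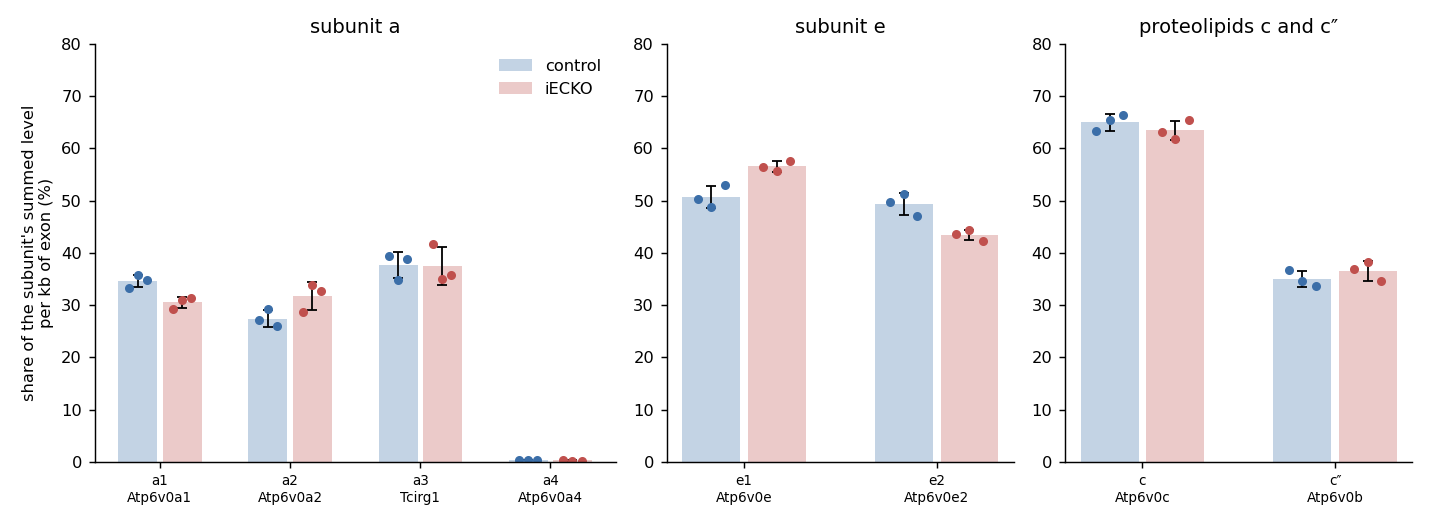
Share of each isoform gene in the summed level of its subunit, in percent of normalized counts per kilobase of exon. Bars are means, lines ± SD and points the 3 libraries of each genotype. The a1 share is lower (34.6% to 30.5%) and the e1 share higher (50.7% to 56.6%) in iECKO samples without overlap, whereas the a3 share and the balance of c and c″ overlap.

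Subunit e also has a pair of genes. *Atp6v0e* (e1, chromosome 17, 26663231 to 26699647, plus strand) was at 1089, 834 and 1011 normalized counts in controls and 1205, 1094 and 1172 in iECKO samples. All iECKO libraries were above the controls, the nearest by few counts. With a log2 fold change of 0.25 (SE 0.12, 95% interval -0.02 to 0.52) it did not pass the threshold (limma adjusted *P* = 0.240). *Atp6v0e2* (e2, chromosome 6, 48537615 to 48541801, plus strand) was at 691, 561 and 576 in controls and 597, 560.1 and 552 in iECKO samples, which overlapped, with a log2 fold change of -0.09 (SE 0.12, 95% interval -0.36 to 0.18, limma adjusted *P* = 0.696). The log2 ratio of e1 to e2 was 0.66, 0.57 and 0.81 in controls and 1.02, 0.97 and 1.09 in iECKO samples. The difference was 0.44 among libraries with *Xist* and 0.15 in those without. Over all libraries the ratio was higher by 0.34 in iECKO samples, a change of 26.7%, without overlap (exact permutation *P* = 0.1, adjusted *P* = 0.2), and the e1 share per kilobase of exon was 50.7% ± 2.12 in controls and 56.6% ± 1.02 in iECKO samples.

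*Atp6v0d1*, which encodes the d subunit of most tissues (chromosome 8, 105524465 to 105566047, minus strand), varied least of the 10 genes in both genotypes, with coefficients of variation of 1.96% and 0.433%. It was at 1376, 1335 and 1385 normalized counts in controls and 1423, 1418 and 1411 in iECKO samples. The groups did not overlap, but the log2 fold change was only 0.05 (SE 0.07, 95% interval -0.12 to 0.23, limma adjusted *P* = 0.717). The gene of the other isoform, *Atp6v0d2*, known from osteoclasts and kidney, was at 2.36 to 13.7 and was not tested, so that *Atp6v0d1* supplied 99.6% of the d transcripts per kilobase in controls and 99.7% in iECKO samples.

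The proteolipid ring is built from many copies of subunit c and a c″ subunit. *Atp6v0b* (c″, chromosome 4, 117884326 to 117887333, minus strand) was at 1139, 876 and 1098 normalized counts in controls and 1193, 1109 and 1113 in iECKO samples, with a log2 fold change of 0.14 (SE 0.12, 95% interval -0.13 to 0.41, limma adjusted *P* = 0.518). The antisense gene *Gm12841* shares 11.8% of its exon bases. *Atp6v0c* (c, chromosome 17, 24163866 to 24169702, minus strand) was at 3233, 2736 and 3576 in controls and 3361, 2956 and 3479 in iECKO samples, with a log2 fold change of 0.04 (SE 0.12, 95% interval -0.22 to 0.31, limma adjusted *P* = 0.864). The groups overlapped for both genes. The log2 ratio of c to c″ differed by -0.10 with overlap (exact permutation *P* = 0.3).

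The value of *Atp6v0c* is uncertain because of a near-identical copy. The processed pseudogene *Atp6v0c-ps2* (chromosome 6, 37806086 to 37806550) is 465 bases long and differs from the *Atp6v0c* coding sequence of 465 bases at 1 position, T111C, counted from the first base of the start codon, and its longest identical stretch is 354 bases. The sequences around that position, from the annotated GENCODE M21 transcripts (coding bases 81 to 141, the differing base in capitals), are otherwise the same in the gene and the copy:
Atp6v0c: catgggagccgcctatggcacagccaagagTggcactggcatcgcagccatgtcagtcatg
Atp6v0c-ps2: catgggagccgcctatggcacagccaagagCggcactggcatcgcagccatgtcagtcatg

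In the table, *Atp6v0c-ps2* was at 784 and 827 normalized counts in control samples 1 and 2, at 844 and 793 in iECKO samples 1 and 2, and at exactly 0 in control sample 3 and iECKO sample 3. The 2 libraries at 0 were those with the highest *Atp6v0c* in their genotype. Summed with the copy, *Atp6v0c* was at 4018, 3563 and 3576 in controls and 4205, 3749 and 3479 in iECKO samples. The coefficient of variation changed from 13.3% to 6.96% in controls and from 8.40% to 9.63% in iECKO samples. The log2 fold change of the sum was 0.03 (SE 0.10, limma adjusted *P* = 0.874), and the log2 ratio to *Atp6v0b* differed by -0.11 (exact permutation *P* = 0.4), neither of which passed its threshold.

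Among libraries with *Xist*, the iECKO level as a percentage of control was 103% for *Atp6v0a2*, 99.3% for *Tcirg1*, 114% for *Atp6v0b*, 115% for *Atp6v0c*, 105% for *Atp6v0d1*, 124% for *Atp6v0e* and 91.8% for *Atp6v0e2*. In the pair without *Xist* it was 109% for *Atp6v0a2*, 75.5% for *Tcirg1*, 100.9% for *Atp6v0b*, 82.7% for *Atp6v0c*, 102% for *Atp6v0d1*, 108% for *Atp6v0e* and 97.3% for *Atp6v0e2*. *Atp6v0c* thus lay on opposite sides of 100% in the 2 sets, and the other 6 on the same side. For *Atp6v0c* this split depended on leaving out the copy, which was at 0 in control sample 3, without *Xist*, and iECKO sample 3, with it. Summed with the copy, *Atp6v0c* with *Xist* was at 4018 and 3563 in control samples 1 and 2 and 4205 and 3479 in iECKO samples 1 and 3. Without *Xist* the sum was 3576 in control sample 3 and 3749 in iECKO sample 2. The mean of the sum was thus slightly higher in iECKO samples in both sets, with overlap among libraries with *Xist*. The opposite sides of 100% were no longer seen.

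**Figure D3:**
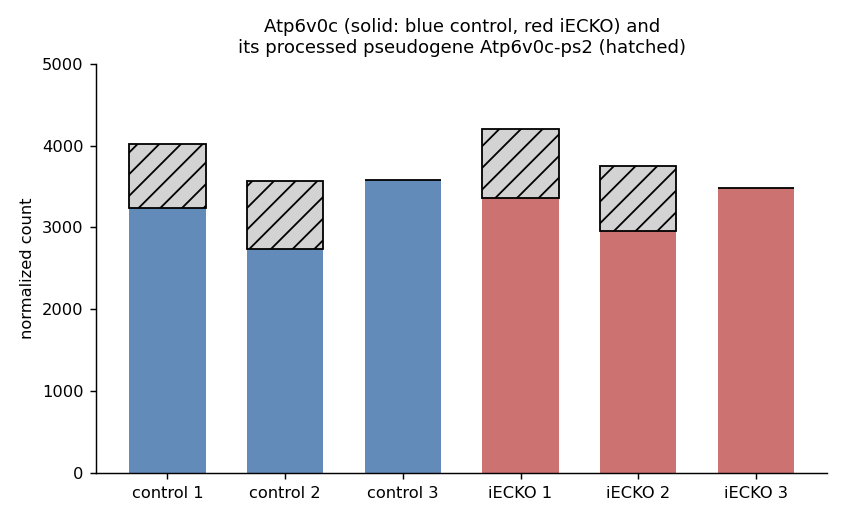
Normalized counts of *Atp6v0c* (solid, blue for control and red for iECKO) with *Atp6v0c-ps2* stacked on top (hatched) in each of the 6 libraries. The copy holds 784 to 844 in 4 libraries and 0 in control 3 and iECKO 3.

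Compared per length, the genes differed widely in level. In controls, in normalized counts per kilobase of exon, the order was *Atp6ap2* (2417 ± 385, SD, n = 3), *Atp6ap1* (1234 ± 106), *Atp6v0c* (940.3 ± 125), *Atp6v0d1* (762 ± 14.9), *Atp6v0b* (506 ± 69.1), *Tcirg1* (404 ± 42.1), *Atp6v0a1* (371 ± 9.0), *Atp6v0a2* (293 ± 7.95), *Atp6v0e* (263 ± 35.1) and *Atp6v0e2* (256 ± 29.8). Of the 9 pairs of neighbours in this order, 5 did not overlap between libraries. *Atp6v0b* and *Tcirg1*, *Tcirg1* and *Atp6v0a1*, *Atp6v0a2* and *Atp6v0e*, and *Atp6v0e* and *Atp6v0e2* did overlap. *Atp6v0c* was taken here without its copy. With the copy added over the same exon length, *Atp6v0c* in control sample 1 would overlap *Atp6ap1*. All 10 lay in the upper part of the tested genes, from above 66.6% of them (*Atp6v0e2*) to above 97.0% (*Atp6ap2*), where the median tested gene had 125 per kilobase. In iECKO samples *Atp6ap1* was first at 1216 ± 139, and *Atp6ap2*, at 1087 ± 459, overlapped both it and *Atp6v0c* at 965 ± 81.0. The order depended on the length: per kilobase of longest coding sequence, *Atp6v0c* led the controls at 6843 ± 908.5, overlapping *Atp6ap2* at 6027 ± 960.2.

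**Figure D4:**
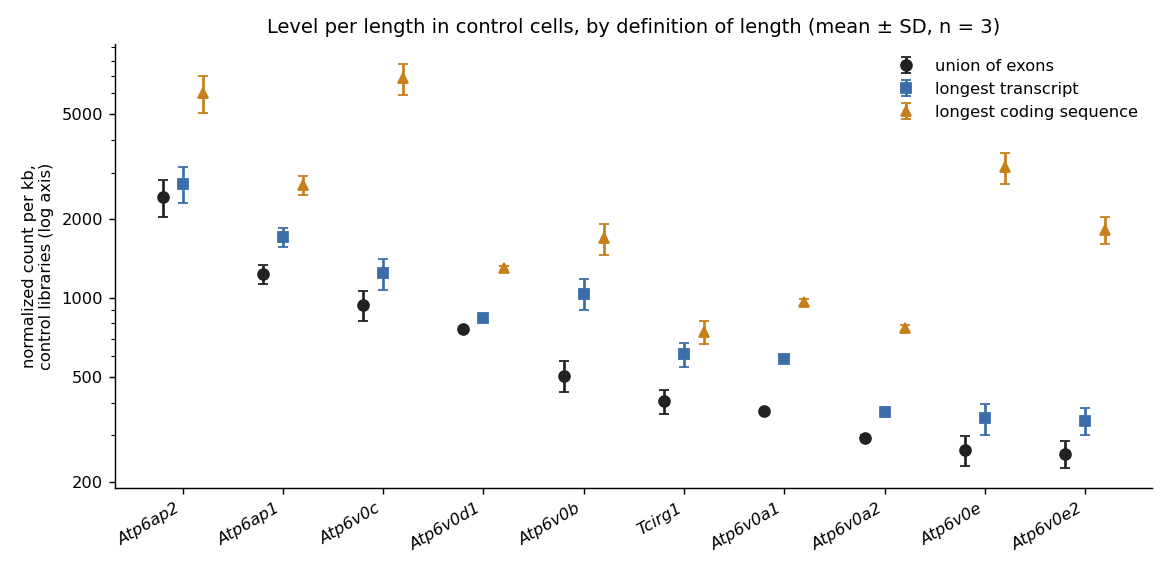
Level of the 10 genes in control libraries (log axis, normalized counts per kilobase, mean ± SD, n = 3) with length taken as all exons, the longest transcript or the longest coding sequence. *Atp6ap2* leads by exon or transcript length, and *Atp6v0c* reaches it by coding length.

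The transcription factors TFEB and TFE3 are known to bind CACGTG motifs (E-boxes) in promoters of lysosomal genes, V-ATPase genes among them. RefSeq promoter windows (GRCm38.p6, 250 bases before to 50 after the start) matched 9 of the 10 genes, all but *Atp6v0a2*, with 13 windows. CACGTG, a palindrome and thus the same on both strands, was found in 3 of the 9 genes, beside 8.09% of all 27025 genes with a window. The longer form TCACGTGA, which contains it, was in 2 of the 9, beside 1.12% of all genes. The 3 promoters are shown from 60 bases before the start to 12 after it, 5′ to 3′ on the gene's strand, with the E-box in capitals, at chr4:117887318-117887389 (minus strand), chr8:105566053-105566124 (minus strand) and chr17:26676336-26676407 (plus strand):
Atp6v0b: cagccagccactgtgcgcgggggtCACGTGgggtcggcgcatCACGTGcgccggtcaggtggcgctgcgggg
Atp6v0d1: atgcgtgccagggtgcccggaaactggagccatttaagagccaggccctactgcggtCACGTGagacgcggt
Atp6v0e: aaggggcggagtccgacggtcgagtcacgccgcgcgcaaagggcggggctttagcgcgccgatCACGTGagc

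*Atp6v0b* holds 2 E-boxes, 36 and 18 bases before the start, that of *Atp6v0d1* spans the start, and that of *Atp6v0e* begins at the transcribed base 4. The log2 fold changes of these 3 genes were 0.14, 0.05 and 0.25, all without passing the threshold. A motif match is a description of the letters and no evidence of binding.

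Beyond the 10 genes, no other V0 or V1 subunit gene tested passed the threshold. The V0 genes outside the list were *Atp6v0a4* and *Atp6v0d2*, above, and *Rnasek*, which encodes a small V0 subunit. *Rnasek* had a log2 fold change of -0.21 (SE 0.12, limma adjusted *P* = 0.344) and *Atp6v0a4* one of -0.73 (SE 0.52, adjusted *P* = 0.449). Of the 13 V1 subunit genes, 10 were tested and 0 passed the threshold, with 0 also at an unadjusted limma *P* below 0.05, beside 23.9% of all genes tested, and with 6 positive and 4 negative log2 fold changes and a median of 0.03. The V1 genes with the lowest *P* were *Atp6v1f* (F subunit, log2 fold change -0.24, SE 0.11, limma adjusted *P* = 0.227) and *Atp6v1g2* (a G isoform known from neurons, -0.36, SE 0.25, adjusted *P* = 0.438).

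Among 12 genes for assembly factors and regulators, 11 were tested and 1 was higher in iECKO samples, beside 3.28% of all genes. *Ccdc115*, whose product acts with TMEM199 in the endoplasmic reticulum in the assembly of V0, was at 636, 658 and 559 normalized counts in controls and 821, 921 and 824 in iECKO samples. All iECKO libraries were above the controls, and the log2 fold change was 0.47 (SE 0.11, 95% interval 0.22 to 0.72, limma adjusted *P* = 0.0387). This call held in 8 of 11 alternative settings and in 0 of 6 fits that left out a library, with log2 fold changes of 0.35 to 0.52. As given above, 206 to 983 of all genes passed with a library left out, against 1193 in the main fit. The iECKO level was 127% of control among libraries with *Xist* and 165% in those without. *Tmem199*, named after its values were seen, was at 104, 149.6 and 159.5 in controls and 238, 228 and 214 in iECKO samples, a log2 fold change of 0.74 (SE 0.21) that did not pass the threshold (limma adjusted *P* = 0.0672). The median log2 fold change of the 11 was 0.04.

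Of the 4 MiT/TFE transcription factor genes, 0 passed the threshold in limma, with 1 at an unadjusted *P* below 0.05, a level that 23.9% of all genes tested reached. *Mitf* was at 241, 218 and 186 normalized counts in controls and 242, 414 and 477 in iECKO samples, with iECKO sample 1 beside the controls and the other two clearly above (log2 fold change 0.76, SE 0.26, limma adjusted *P* = 0.119). It passed in 1 of 6 fits with a library left out, that without iECKO sample 1 (log2 fold change 1.05, adjusted *P* = 0.0228). *Tfe3* had a log2 fold change of -0.17 (SE 0.10, limma adjusted *P* = 0.335).

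**Figure D5:**
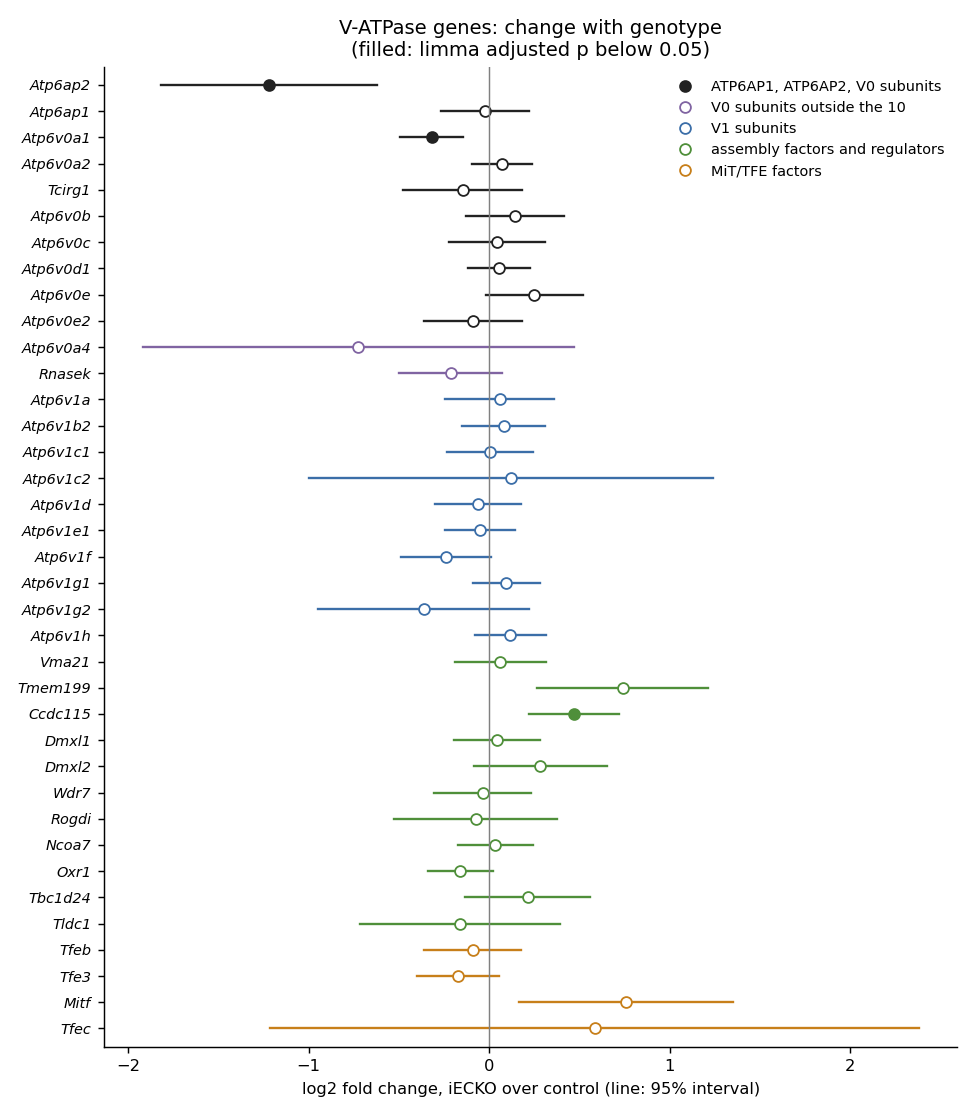
Log2 fold change (iECKO over control, linear axis) of the 10 genes and of the other V-ATPase genes tested, with the 95% interval of the limma fit as a line and a filled point where the adjusted *P* was below 0.05. *Atp6ap2* (-1.22) and *Atp6v0a1* (-0.32) are filled to the left of 0 and *Ccdc115* (0.47) to the right, and the intervals of the 10 V1 genes include 0.

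Over the 6 libraries, the genes whose log2 levels followed *Atp6ap2* most closely, among 11320 genes with a mean of at least 100, were *Pde1c* (Pearson's r = 0.995), *Plcb3* (0.994), *Agrn* (0.993), *Mras* (0.991) and *Ogn* (0.990). They encode a phosphodiesterase, a phospholipase C, the basement membrane proteoglycan agrin, a small GTPase and a small matrix proteoglycan. The libraries share genotype and scaling, so these coefficients are descriptions. Of the members, *Atp6v0a1* was nearest at 0.924, but only at rank 322 of the 11320 genes. It was followed by *Tcirg1* (0.728, rank 1804), *Atp6v0e2* (0.655, rank 2281) and *Atp6ap1* (0.564, rank 2825). *Atp6v0c* (-0.098), *Atp6v0b* (-0.239), *Atp6v0e* (-0.479), *Atp6v0d1* (-0.659) and *Atp6v0a2* (-0.665) had coefficients below 0.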

How the data were processed

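RNA-Seq of CD31-positive lung cells from 3 control and 3 *Atp6ap2* iECKO samples was analysed. According to the methods, the authors prepared TruSeq libraries, aligned reads to mm10 and quantified genes with BaseSpace tools. The labels call the values raw counts, but the deposited table holds a normalized signal that is not whole numbers. Only 15.5% to 31.0% of low values were whole multiples of a step, so no reads were recovered and no counting interval is given. A count model, planned only for the case of raw counts, was not used. Precision is given by SD and SE over 3 libraries.

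Genes reaching 10 in 3 or more libraries were fitted with limma 3.58.1 (R 4.3.3, trend, no covariate) on log2(value + 1). On simulated data 84.9% of 199 seeded genes were recovered. The seeded changes were larger than that of any of the 10 genes but *Atp6ap2*, so this share does not apply to smaller changes. Single values were tested by exact permutation. Of the symbols, 97.9% matched GENCODE M21 (GRCm38), which gave coordinates and lengths. Members and lists were chosen with earlier results of these data known. Genes named beyond the 10 were, per list, those past the threshold or else the 2 with the lowest *P*, and the 5 most correlated with *Atp6ap2*. *Tek*, *Tmem199* and *Esr1* were named outside this rule. Alternatives covered pseudocounts, filters, scalings, variance models, thresholds, lengths, *Xist*, the replicate block and each library left out.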

Additional observations from a re-analysis of the deposited data

How the results depend on the processing

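The log2 fold change of *Atp6ap2* kept its sign in all settings and stayed between -1.28 and -1.18 when all or only the *Xist* libraries were used, but missed the threshold without the mean-variance trend (-1.22, limma adjusted *P* = 0.0917) and with only libraries that had *Xist* (-1.19, adjusted *P* = 0.228). Leaving out 1 library gave -1.54 to -0.999, past the threshold only without iECKO sample 1. *Atp6ap1*, which was never past the threshold, changed sign to 0.016 with scaling to the library total, and leaving out 1 library gave -0.116 to 0.042 for it, -0.062 to 0.131 for *Atp6v0c* and -0.147 to 0.0026 for *Atp6v0e2*. The number of the 10 genes past the threshold, 2 as reported, was 1 with no filter, with library total or upper quartile scaling, with *Xist* as a covariate and with the replicate block, was 0 without the trend, with only *Xist* libraries and at an adjusted *P* below 0.01, and was 0 to 1 with 1 library left out. The number of other V-ATPase and MiT/TFE genes past the threshold, 1 as reported (*Ccdc115*), was 0 without the trend, with *Xist* as a covariate and with only *Xist* libraries, and 0 to 1 with 1 library left out, where the 1 was *Mitf* without iECKO sample 1. *Ccdc115* was past it in none of the 6 fits with a library left out (adjusted *P* = 0.0567 to 0.15). The number of all genes past the threshold, 1193 as reported, also moved. It was 1047 with no filter, 1172 and 1282 with library total and upper quartile scaling, and 767 with *Xist* as a covariate. Without the trend it was 304, with only *Xist* libraries 1, and with 1 library left out 206 to 983. The cause of these changes was not tested. Summing *Atp6v0c* with its pseudogene was chosen after seeing the data.

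The labels do not say what the shared replicate numbers mark. Deviations from the genotype mean correlated by 0.252, 0.114 and 0.078 in same-numbered libraries and by -0.208 to 0.10 in the 6 other pairs, of which 5 were negative, and 5 of the 6 libraries correlated best with their own number. The highest of the other pairs, at 0.10, was control sample 3 with iECKO sample 2, the libraries without *Xist*. The main fit was planned without a covariate, and the libraries were treated as unpaired. With the replicate block, *Atp6ap2* had a log2 fold change of -1.22 (limma adjusted *P* = 0.0105), 1 of the 10 genes (*Atp6ap2*) and 1 other V-ATPase gene passed the threshold, and 1508 genes in all passed it rather than 1193. The ratio of a1 to a2 differed by -0.39 in the same pairs (exact sign-flip test, *P* = 0.25, the smallest possible). This outcome too was fixed by the separation of the single genes.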
